A study of Mus musculus with 12 samples.

Results

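The genes described here are 10 late risers of the response to IL-12: Tlr7, Tbxa2r, Sema4f, Ms4a4c, Tmem106a, Plac8, Atp6v0d2, Scly, Cyp11a1 and Dglucy. They were taken by gene symbol from 19752 genes measured on Affymetrix Mouse Gene 1.0 ST arrays, and each had 1 probe set. They were chosen by their array intensities, for values that were higher after 8 h of IL-12 than after 2 h of IL-12 or in untreated cells at 2 h. Their changes in those comparisons are therefore given as a description, with no test. All samples were CD4+ T cells of spleens from male C57BL/6 mice aged 6 weeks, isolated by negative selection and stimulated for 48 h with beads against CD3 and CD28, so the untreated cells had been activated as well. From there, 4 samples had IL-12 at 100 U/ml for 8 h, 5 had IL-12 at 100 U/ml for 2 h, 2 were untreated for 2 h, and 1 is titled baseline with no time given. No untreated cells at 8 h were among the samples, so 8 h of IL-12 and the added hours in culture cannot be told apart. Whether the arrays of a group stem from different mice or cultures is not stated, so p-values and errors here cover the spread between the arrays at hand, and that spread may be technical.

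IL-12 is made by dendritic cells and macrophages. It acts on activated T cells through a receptor that signals by the kinases JAK2 and TYK2 to the transcription factor STAT4, and it steers helper cells to the Th1 fate with interferon-gamma as its main product. Genes that change within the first hours can be direct targets, while later ones can also follow from proteins made in between or from cytokines that the cells release. The 10 genes are of different kinds. They encode 2 receptors for outside signals, 3 further membrane proteins, a small cysteine-rich protein, a proton pump subunit and 3 enzymes.

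The arrays carry numbers in their titles, and these numbers mark a second division of the samples. Arrays numbered 2 to 4 (2 at IL-12 8 h, 3 at IL-12 2 h) and arrays numbered 5 to 8 (2 at IL-12 8 h, 2 at IL-12 2 h, 2 untreated, 1 baseline) differed in 4795 of the 19752 genes at a limma adjusted p under 0.05. No label says what the numbers stand for. Markers of T cells were bright on every array, with a mean log2 intensity over 7 of 8 listed markers of at least 12.01. The mean of 13 of 14 listed macrophage and monocyte markers was 6.26 to 6.31 at IL-12 8 h and 6.36 to 6.39 at IL-12 2 h on arrays numbered 2 to 4. On the arrays numbered 5 to 8 it was 6.54 to 6.59 at IL-12 8 h, 6.54 to 6.67 at IL-12 2 h, 6.61 to 6.76 in untreated cells and 6.43 at baseline. Between the numbered runs 5 were lower and 1 was higher on arrays numbered 2 to 4, led by Lyz2 (log2 -1.96) and Cd68 (log2 -0.83). The mean of 5 of 6 listed NK cell markers was also lower on arrays numbered 2 to 4, at 5.35 to 5.40 against 5.69 to 5.84 at IL-12 8 h and 5.57 to 5.68 against 5.81 to 5.85 at IL-12 2 h, with 5.99 to 6.03 in untreated cells and 5.61 at baseline. Of these 5, 4 were called lower on arrays numbered 2 to 4, as were 1 of 2 CD8 T cell, 2 of 7 dendritic cell and 2 of 7 T cell markers; called higher were 3 of 8 B cell, 2 of 7 neutrophil, 1 of 7 dendritic cell and 1 of 7 T cell markers. Between 8 h and 2 h of IL-12, 0 of the 13 macrophage markers passed. The T cell markers Cd3d (log2 0.30, adjusted p = 0.0058) and Cd28 (0.24, adjusted p = 0.0115) and the NK cell marker Ncr1 (0.38, adjusted p = 0.000536) rose, while the NK cell marker Klrb1c (-0.67, adjusted p = 6.14e-05), the dendritic cell marker Ccr9 (-0.58, adjusted p = 0.00366) and the B cell marker Ebf1 (-0.29, adjusted p = 0.0227) fell. Array intensities have no true zero, so no marker can be called absent. In bulk RNA, fewer cells of a type and less RNA per cell cannot be told apart.

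Promoters of 8 members are in the RefSeq table of build GRCm38.p6, with 12 start sites among them. The 3 below, of Plac8, Cyp11a1 and Ms4a4c, are shown because they hold the letter matches described after them. Each is the stretch of 250 bases before the annotated start, 5′ to 3′ on the gene's strand, and capitals mark matches to the T-box letters GGTGTGA or the RUNX letters TGTGGT on either strand.
Plac8 (chr5:100572206-100572455, minus strand): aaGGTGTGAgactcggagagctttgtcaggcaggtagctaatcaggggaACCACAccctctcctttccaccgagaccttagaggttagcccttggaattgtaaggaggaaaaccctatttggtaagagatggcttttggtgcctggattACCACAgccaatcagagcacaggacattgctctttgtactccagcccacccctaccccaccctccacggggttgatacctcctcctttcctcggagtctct
Cyp11a1 (chr9:57997774-57998023, plus strand): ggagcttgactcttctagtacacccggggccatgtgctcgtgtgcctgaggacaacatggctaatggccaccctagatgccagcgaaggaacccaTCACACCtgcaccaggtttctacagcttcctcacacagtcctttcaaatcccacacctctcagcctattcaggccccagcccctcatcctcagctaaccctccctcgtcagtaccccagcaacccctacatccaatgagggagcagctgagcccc
Ms4a4c (chr19:11407411-11407660, plus strand): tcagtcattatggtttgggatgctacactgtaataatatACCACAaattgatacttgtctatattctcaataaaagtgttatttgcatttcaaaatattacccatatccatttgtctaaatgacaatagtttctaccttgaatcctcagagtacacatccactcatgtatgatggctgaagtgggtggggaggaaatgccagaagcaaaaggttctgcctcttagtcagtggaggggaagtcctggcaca
T-bet, the T-box factor that defines Th1 cells, binds letters of the first kind. They occur in the windows shown for Plac8, where the match GGTGTGA starts 248 bases before the start, and for Cyp11a1, where the match on the other strand, TCACACC, begins 155 bases before it. They were found in 2 of the 12 member windows and in 3.33% of 32851 mouse windows of the same length. The RUNX letters stood in 2 of 12 member windows, 2 times in that shown for Plac8 and once in that of Ms4a4c, and in 14% of all windows. Plac8 and Cyp11a1 each have another annotated start, and the windows of those starts held neither T-box nor RUNX letters. The STAT letters TTCNNNGAA, the interferon-stimulated response element and the AP-1 letters TGANTCA were in 0 of the 12 windows, and in 7.02%, 2.98% and 6.75% of all windows. A match is only a run of letters, and its absence says nothing about a factor. Plac8, Cyp11a1 and Ms4a4c followed each other over the 12 arrays (Pearson's r of 0.90 to 0.96). No kind of match was common to all 3, and each gene differed between the numbered runs. Scly, whose window held none of these letters, had r of 0.90 with Plac8, 0.87 with Cyp11a1 and 0.83 with Ms4a4c. Whether the matches bear on this likeness was not tested. Base composition differed among the members, with a GC content of 38.8% for Ms4a4c and 65.2% for Scly, around a median of 52.4% over all windows.

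Among the receptors, Tlr7 encodes the endosomal sensor of single-stranded RNA, which signals through MyD88. Its log2 intensity was 7.65, 7.77, 7.56 and 7.35 after 8 h of IL-12, 7.41, 7.38, 7.23, 7.03 and 7.27 after 2 h of IL-12, 6.68 and 6.78 in untreated cells and 7.01 at baseline. All IL-12 arrays lay above both untreated arrays, and the 8 h values overlapped those at 2 h by 1 array (7.35 against a highest 2 h value of 7.41). The model log2 change was 0.34 ± 0.07 (SE) between 8 h and 2 h of IL-12, 0.74 ± 0.10 between IL-12 8 h and untreated cells and 0.40 ± 0.10 between IL-12 2 h and untreated cells. Tlr7 was dimmer than the median gene on average.

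Tbxa2r encodes the receptor for thromboxane A2, a lipid mediator of platelets and macrophages. It had log2 intensities of 9.33, 9.16, 8.96 and 9.07 in IL-12 8 h cells, 8.36, 8.44, 8.32, 8.57 and 8.35 in IL-12 2 h cells, 8.92 and 8.65 in untreated cells and 9.12 at baseline. The lowest group was IL-12 2 h, so that the difference of 0.73 ± 0.08 between 8 h and 2 h of IL-12 was larger than the 0.32 ± 0.12 between IL-12 8 h and untreated cells. At baseline the gene stood as high as at 8 h of IL-12. Untreated array 7 and the lowest 8 h array differed by less than the spread between the 2 untreated arrays.

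Sema4f encodes a membrane-bound semaphorin, a family of guidance proteins that also act between immune cells. Its values were 8.35, 8.27, 8.42 and 8.71 at IL-12 8 h, 8.01, 7.95, 8.02, 7.69 and 7.72 at IL-12 2 h, 7.55 and 7.43 in untreated cells and 7.78 at baseline. The 3 groups in culture did not overlap, with IL-12 8 h highest and untreated lowest. Model changes were 0.57 ± 0.10 between 8 h and 2 h of IL-12 and 0.93 ± 0.13 between IL-12 8 h and untreated cells.

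Ms4a4c belongs to a family of membrane proteins that span the membrane several times, of which the B cell marker CD20 (Ms4a1) is the best known. At IL-12 8 h its log2 intensity was 10.28, 10.25, 9.64 and 9.49, at IL-12 2 h it was 9.71, 9.83, 9.80, 8.56 and 8.68, in untreated cells 8.49 and 8.58, and at baseline 9.86. The 8 h and 2 h groups overlapped, with arrays numbered 2 to 4 higher in both. Untreated arrays stood beside the 2 h arrays of their own run. The model gave 0.70 ± 0.08 between 8 h and 2 h of IL-12 and 0.91 ± 0.12 between IL-12 8 h and untreated cells.

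Tmem106a encodes a membrane protein described in macrophages, a relative of the lysosomal protein TMEM106B. Its values of 7.80, 7.84, 7.70 and 7.53 at IL-12 8 h lay above all of 7.08, 7.25, 7.20, 7.36 and 7.20 at IL-12 2 h, and these above 6.79 and 6.82 in untreated cells and 6.81 at baseline. The baseline value lay between the untreated ones. The model changes were 0.51 ± 0.07 between 8 h and 2 h of IL-12 and 0.89 ± 0.10 between IL-12 8 h and untreated cells, and the gene was dimmer than the median gene.

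**Figure D1:**
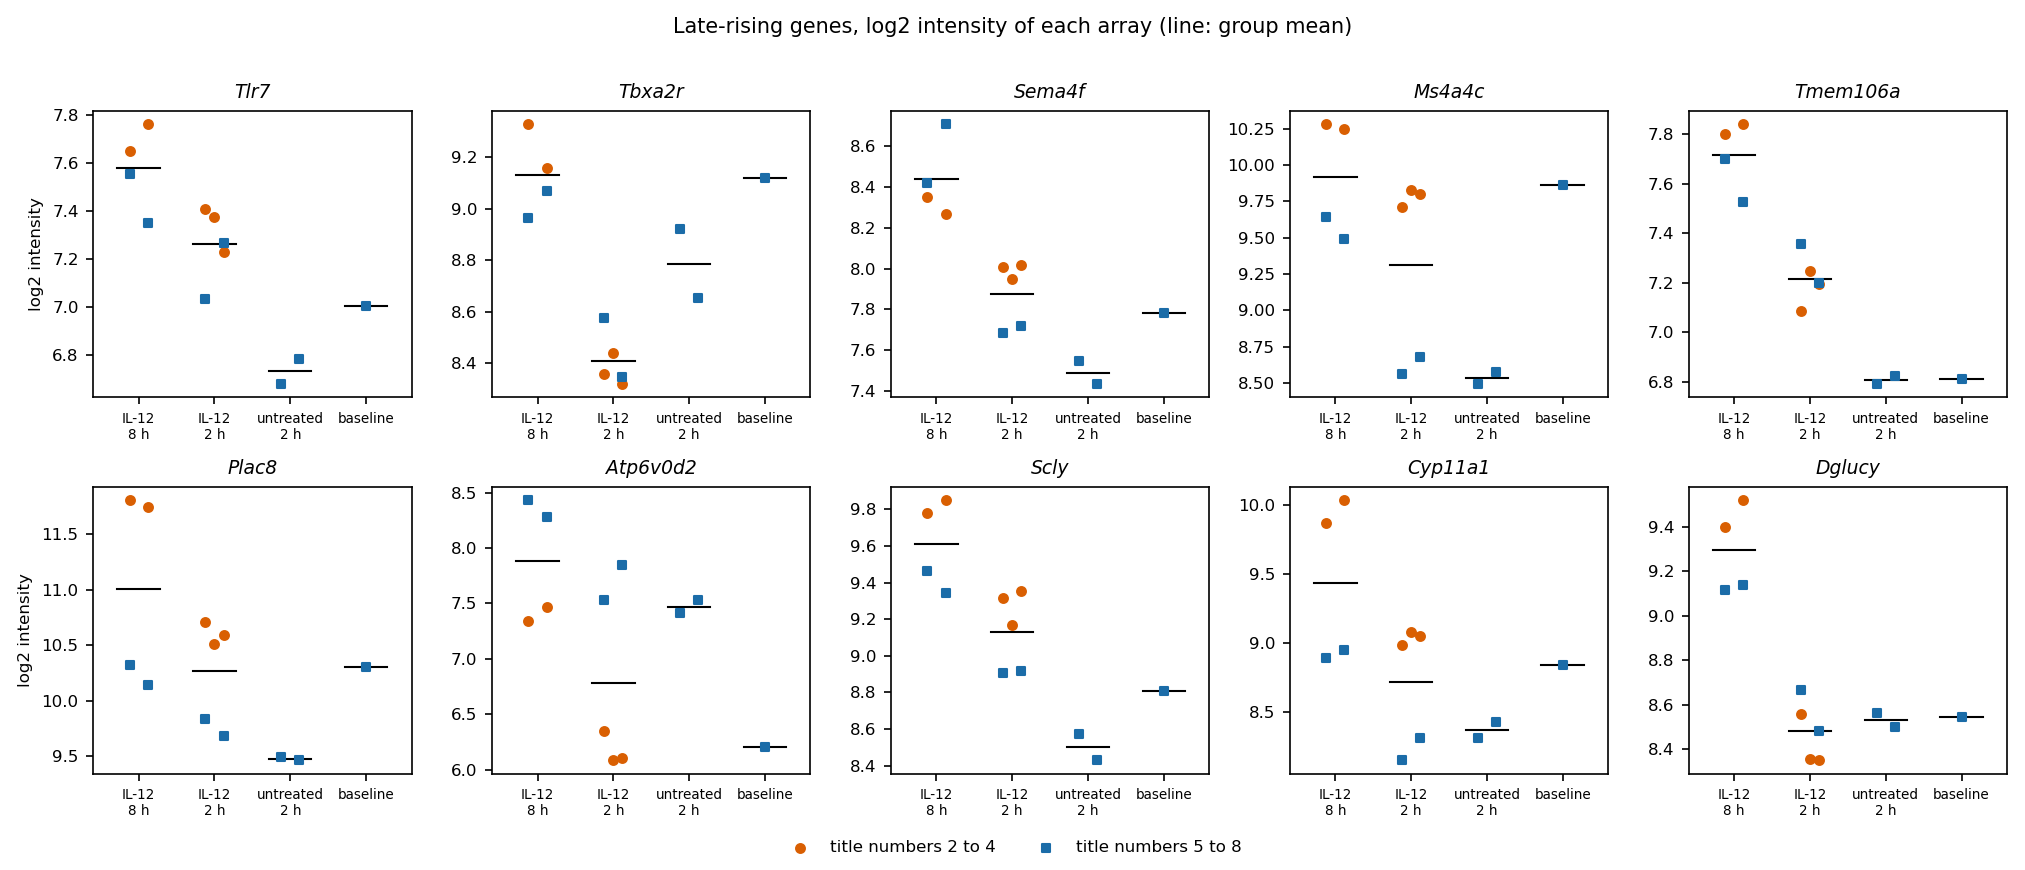
Log2 intensity (y axis) of the 10 genes on each array, by group (x axis); circles are arrays numbered 2 to 4, squares arrays numbered 5 to 8, and lines are group means. Plac8, Ms4a4c and Cyp11a1 are higher on arrays numbered 2 to 4 in both IL-12 groups and Atp6v0d2 is lower. For Sema4f, Tmem106a and Dglucy the arrays at 8 h of IL-12 lie above all other arrays.

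Plac8 encodes a small cysteine-rich protein of lymphoid and myeloid cells. It had log2 intensities of 11.81, 11.74, 10.32 and 10.14 at IL-12 8 h, 10.71, 10.52, 10.60, 9.84 and 9.68 at IL-12 2 h, 9.5 and 9.46 in untreated cells and 10.30 at baseline. The 2 arrays above 11 were those numbered 2 and 3 at 8 h, and the 8 h arrays numbered 5 and 6 lay below the 2 h arrays of the other run. The model change was 0.85 ± 0.11 between 8 h and 2 h of IL-12 and 0.94 ± 0.16 between IL-12 8 h and untreated cells. Between IL-12 2 h and untreated it was 0.09 ± 0.16.

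Atp6v0d2 encodes a d subunit of the membrane sector of the vacuolar proton pump, the form known from osteoclasts and macrophages. Its values were 7.34, 7.47, 8.44 and 8.28 at IL-12 8 h, 6.35, 6.08, 6.11, 7.53 and 7.84 at IL-12 2 h, 7.41 and 7.53 in untreated cells and 6.20 at baseline. Here the arrays numbered 2 to 4 were the low ones in both IL-12 groups, and the baseline array stood with them. The model change was 0.97 ± 0.11 between 8 h and 2 h of IL-12, 1.04 ± 0.15 between IL-12 8 h and untreated cells and 0.07 ± 0.15 between IL-12 2 h and untreated cells. Without the run in the model the last of these was -0.69, since 3 of the 5 arrays with IL-12 for 2 h belonged to the low run.

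Scly encodes selenocysteine lyase, which frees selenium from selenocysteine for reuse. It reached 9.78, 9.85, 9.46 and 9.34 at IL-12 8 h, 9.31, 9.17, 9.36, 8.91 and 8.92 at IL-12 2 h, 8.57 and 8.43 in untreated cells and 8.81 at baseline. Every IL-12 array lay above the untreated and baseline arrays. The model changes were 0.52 ± 0.06 between 8 h and 2 h of IL-12, 0.92 ± 0.08 between IL-12 8 h and untreated cells and 0.40 ± 0.08 between IL-12 2 h and untreated cells.

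Cyp11a1 encodes the mitochondrial enzyme that cuts the side chain of cholesterol to make pregnenolone, the first step of steroid synthesis. Its log2 intensity was 9.87, 10.04, 8.89 and 8.95 at IL-12 8 h, 8.99, 9.08, 9.06, 8.15 and 8.31 at IL-12 2 h, 8.32 and 8.43 in untreated cells and 8.85 at baseline. As with Plac8, arrays numbered 2 to 4 were the high ones. The model change was 0.81 ± 0.07 between 8 h and 2 h of IL-12, 0.61 ± 0.09 between IL-12 8 h and untreated cells and -0.20 ± 0.09 between IL-12 2 h and untreated cells.

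Dglucy encodes a mitochondrial enzyme that converts D-glutamate. It had 9.40, 9.52, 9.12 and 9.14 at IL-12 8 h, 8.56, 8.36, 8.35, 8.67 and 8.48 at IL-12 2 h, 8.56 and 8.50 in untreated cells and 8.55 at baseline. The 4 arrays at 8 h stood apart from all others, and the remaining 8 spanned 8.35 to 8.67. The model change was 0.82 ± 0.09 between 8 h and 2 h of IL-12 and 0.73 ± 0.13 between IL-12 8 h and untreated cells.

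Across the 10 genes the median model change was 0.71 for IL-12 8 h against IL-12 2 h, where the median over all genes was -0.01. It was 0.90 for IL-12 8 h against untreated cells, and 0.15 for IL-12 2 h against untreated cells (all genes -0.01 and -0.00). The first of these comparisons called 12.6% of all genes in either direction and the second 3.16%; both chose the members, so nothing is read from their size. All 3 comparisons share arrays. Within each numbered run the 8 h arrays lay above all 2 h arrays for 10 of 10 members, an order that 8.83% of all genes had. Among arrays numbered 5 to 8, the 8 h arrays lay above both untreated arrays for 10 of 10 (18.9% of all genes). With no regard to the run, all 8 h arrays lay above all 2 h arrays for 4 of 10 (Sema4f, Tmem106a, Tbxa2r and Dglucy), against 3.98% of all genes.

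What the cells did at 2 h of IL-12 parted the members, as a description over arrays that also chose them. Among arrays numbered 5 to 8, both IL-12 2 h arrays lay above both untreated arrays for 5 of 10 members (Plac8, Sema4f, Scly, Tmem106a and Tlr7, against 12.9% of all genes). They lay below them for 2 (Cyp11a1 and Tbxa2r; 16.5% of all genes). For Scly, Tlr7 and Tmem106a the difference between IL-12 2 h and untreated cells, 0.40 ± 0.08, 0.40 ± 0.10 and 0.38 ± 0.10, stood beside a further difference between 8 h and 2 h of 0.52, 0.34 and 0.51. For Plac8, Atp6v0d2 and Dglucy the 2 h difference was 0.09 ± 0.16, 0.07 ± 0.15 and -0.09 ± 0.13. These model values borrow from arrays of both runs. Within arrays numbered 5 to 8, which hold all untreated cells, the same differences were 0.28, 0.21 and 0.04. For Sema4f and Ms4a4c the model gave 0.36 ± 0.13 and 0.21 ± 0.12, and arrays numbered 5 to 8 gave 0.21 and 0.09. Tbxa2r was lower at IL-12 2 h than in untreated cells, by a log2 of -0.41 ± 0.12.

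**Figure D2:**
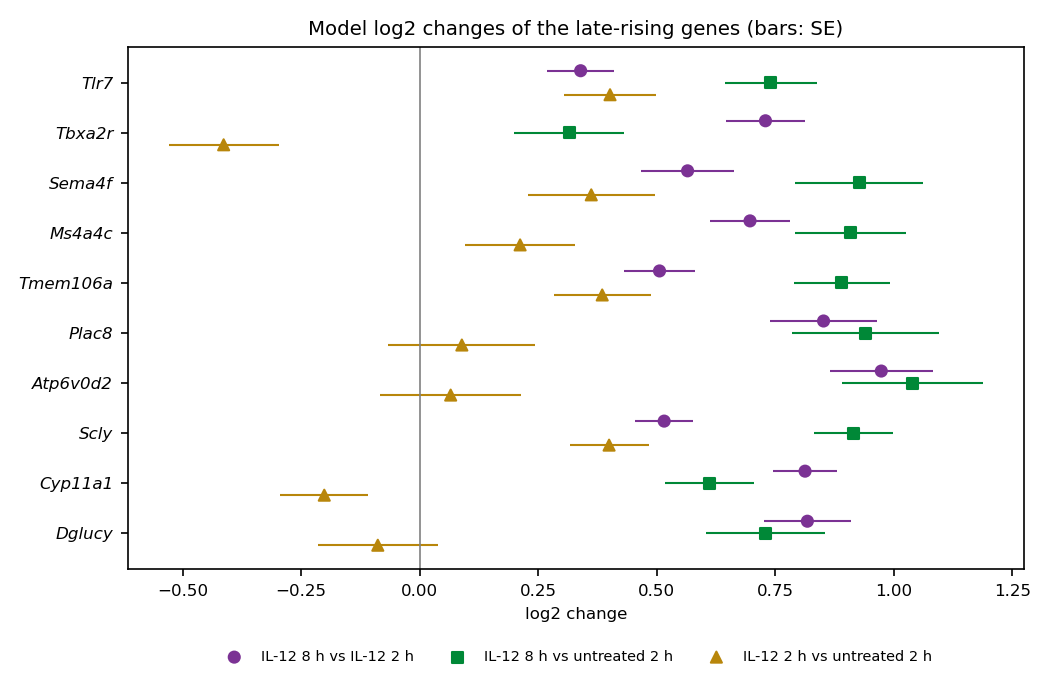
Log2 changes (x axis) of the 10 genes (y axis) from the model with all 12 arrays, for IL-12 8 h against IL-12 2 h (circles), IL-12 8 h against untreated 2 h (squares) and IL-12 2 h against untreated 2 h (triangles), with SE bars. Both 8 h changes are positive for all 10 genes, while the 2 h changes range from -0.41 for Tbxa2r to 0.40 for Tlr7.

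The baseline array was set against untreated cells with n = 1, with the spread taken from the other groups, and as a description because the untreated arrays had a part in the choice. Untreated cells were higher in Atp6v0d2 by a log2 of 1.27 ± 0.20. They were lower in Ms4a4c by -1.33 ± 0.15, in Plac8 by -0.82 ± 0.20 and in Cyp11a1 by -0.47 ± 0.12. These are the 4 genes with the widest differences between the numbered runs. The values rest on placing the baseline array by its title number with the arrays numbered 5 to 8. The array carries the number 5, yet its 6.20 for Atp6v0d2 and 9.86 for Ms4a4c lay near those of the IL-12 2 h arrays numbered 2 to 4 (6.08 to 6.35 and 9.71 to 9.83). For these 4 genes a difference from baseline and a difference between runs cannot be told apart. Tmem106a and Dglucy differed by -0.00 ± 0.13 and -0.01 ± 0.17.

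The difference between the numbered runs is given as a description, since it enters the rise that chose the members. All untreated arrays are numbered 7 and 8, so the rise over them is larger without the run term for genes that were higher on arrays numbered 2 to 4. The change between IL-12 8 h and untreated cells is then 1.52 in place of 0.94 for Plac8, 1.38 in place of 0.91 for Ms4a4c and 1.07 in place of 0.61 for Cyp11a1, while for Atp6v0d2 it is 0.41 in place of 1.04. In the model the run difference rests on the IL-12 arrays, since only these occur in both runs. Arrays numbered 2 to 4 were higher in Plac8 by a log2 of 1.17 ± 0.11, in Ms4a4c by 0.95 ± 0.08, in Cyp11a1 by 0.91 ± 0.07, in Scly by 0.39 ± 0.06 and in Tlr7 by 0.22 ± 0.07. They were lower in Atp6v0d2 by -1.26 ± 0.11. These 6 of 10 lay past the threshold of an adjusted p of 0.05, as did 24.3% of all genes, and nothing is read from that count.

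Sema4f, Tmem106a, Tbxa2r and Dglucy had model differences between 0.04 and 0.07, which average run differences of opposite sign at 8 h and 2 h of IL-12. At 8 h and 2 h these were -0.25 and 0.29 for Sema4f, 0.21 and -0.10 for Tmem106a, 0.23 and -0.09 for Tbxa2r and 0.33 and -0.15 for Dglucy. These genes are the same 4 whose 8 h arrays lay above every 2 h array. For Plac8, Scly, Ms4a4c and Cyp11a1 all arrays numbered 2 to 4 lay above all others within both IL-12 groups, an order found in 13.9% of all genes, and for Atp6v0d2 all lay below (12.9% of all genes). Markers of macrophages and of NK and other cells moved with the run as given above. With the mean of the macrophage markers as a covariate, an alternative added after the data were seen, 0 of the 10 members and 33 genes in all lay past the threshold. The log2 differences were then -1.23 ± 0.30 for Atp6v0d2, 0.99 ± 0.31 for Plac8, 1.14 ± 0.23 for Ms4a4c and 0.81 ± 0.18 for Cyp11a1. The part of any of these cell types in the run difference was not tested. On the IL-12 arrays the macrophage marker mean did not overlap between the runs (6.26 to 6.39 on numbers 2 to 4, 6.54 to 6.67 on numbers 5 to 6), so this covariate and the run cannot be told apart.

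**Figure D3:**
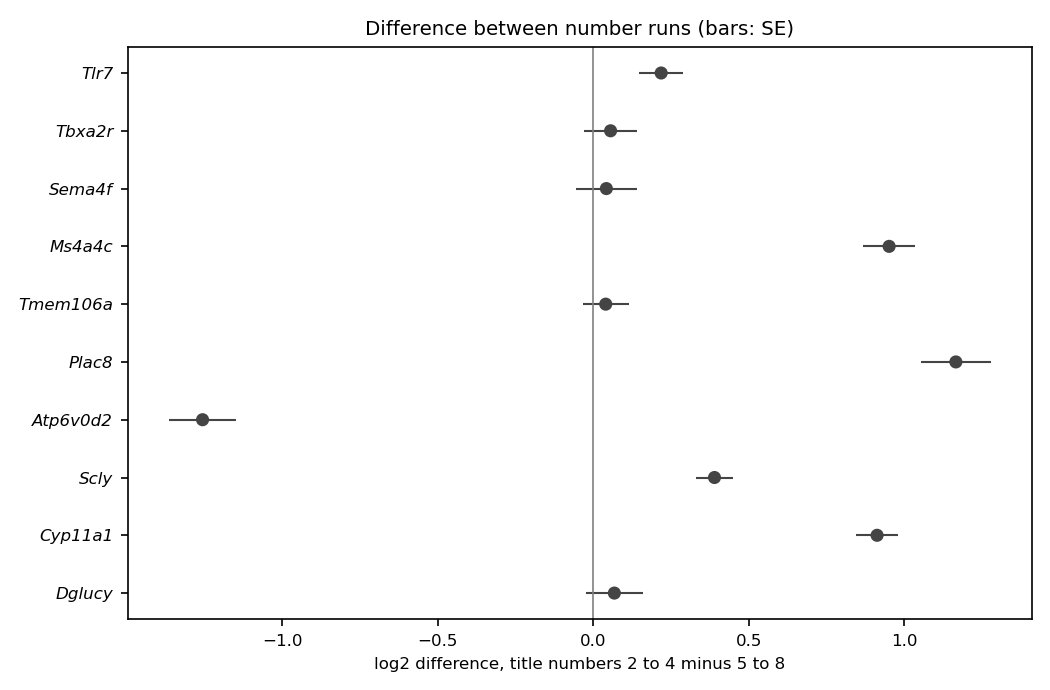
Log2 difference between arrays numbered 2 to 4 and arrays numbered 5 to 8 (x axis) for the 10 genes (y axis), as points with SE bars. Plac8, Ms4a4c and Cyp11a1 are about a log2 of 1 higher on arrays numbered 2 to 4, and Atp6v0d2 is lower by -1.26. Sema4f, Tmem106a, Tbxa2r and Dglucy are near 0, as averages of differences of opposite sign at 8 h and 2 h of IL-12.

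Whether the change between 2 h and 8 h of IL-12 was the same in both runs was tested as a further measure, separate from the size of the change that chose the members. Plac8 differed. Its 8 h arrays were higher than its 2 h arrays by a log2 of 1.17 in arrays numbered 2 to 4 and by 0.47 in those numbered 5 and 6, a difference of 0.70 ± 0.13 (limma adjusted p = 0.0148). It was 1 of 10 members to pass, where 1.79% of all genes were called and 0.84% in the direction of Plac8. The call was lost without IL-12 8 h array 2 (adjusted p = 0.0829), IL-12 8 h array 6 (adjusted p = 0.0773) or IL-12 2 h array 5 (adjusted p = 0.0503), with estimates from 0.60 to 0.79 over all arrays left out.

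The other members did not pass, and Sema4f and Ms4a4c came closest. Sema4f had 0.32 on arrays numbered 2 to 4 and 0.86 on those numbered 5 and 6 (difference -0.54 ± 0.13, adjusted p = 0.0543), and Ms4a4c 0.49 and 0.95 (-0.46 ± 0.12, adjusted p = 0.0679). Both passed after a second quantile normalization (adjusted p = 0.0429 and 0.0457), with a constant of 16 added to the intensities (adjusted p = 0.0465 and 0.0475) and among the brighter genes alone (adjusted p = 0.0309 and 0.0336). Sema4f also passed without IL-12 8 h array 5 (adjusted p = 0.0141). Dglucy had 1.04 and 0.55 (0.49 ± 0.13, adjusted p = 0.0899). Atp6v0d2 had 1.22 and 0.67 (0.55 ± 0.16, adjusted p = 0.126) and passed without IL-12 2 h array 5 (adjusted p = 0.049). Scly and Tlr7 had the closest values in both runs, 0.54 and 0.49 for Scly (difference 0.05 ± 0.12) and 0.37 and 0.30 for Tlr7 (0.07 ± 0.14). All 20 within-run changes were positive, which the choice of the members favours.

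**Figure D4:**
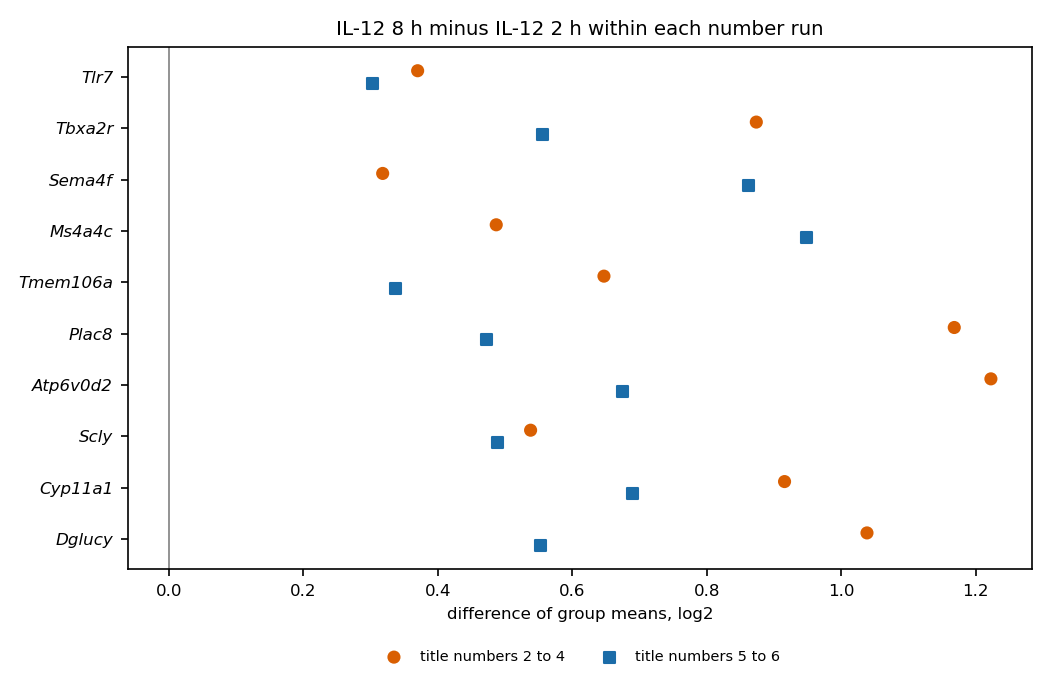
Difference of group means, IL-12 8 h minus IL-12 2 h, in log2 units (x axis) for the 10 genes (y axis), within arrays numbered 2 to 4 (circles) and 5 to 6 (squares). Plac8 has 1.17 and 0.47, while Sema4f and Ms4a4c have the larger value in the arrays numbered 5 to 6.

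The members resembled each other to different degrees over the 12 arrays, which share groups and runs. Pearson's r was highest for Plac8 with Cyp11a1 (0.96), Scly with Tlr7 (0.95) and Ms4a4c with Cyp11a1 (0.91). It was lowest for Atp6v0d2 with Ms4a4c (-0.34) and with Plac8 (-0.21). Over the same arrays r with the mean of the macrophage markers was 0.52 for Atp6v0d2 and between -0.88 (Plac8 and Ms4a4c) and -0.16 (Tbxa2r) for the others. Of 4066 other genes whose SD over the arrays was at least 0.2, those most like the mean standardised profile of the members were Nkg7 (r = 0.97), a granule membrane gene of cytotoxic and Th1 cells, Ints10 (0.95), Rsrp1 (0.94), Slc35d2 (0.93) and Tubd1 (0.93). Their log2 changes were between 0.36 and 0.58 for IL-12 8 h against 2 h and between 0.40 and 0.65 for IL-12 8 h against untreated. Rises are what a choice by likeness to late risers favours, so nothing is read from them.

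Relatives and pathway partners of the members were then tested in IL-12 8 h against IL-12 2 h, as 8 lists with 155 of 164 genes measured. Of these 16 rose and 14 fell, beside 6.27% and 6.36% of all genes. With title number as a block on the 8 IL-12 arrays whose numbers occur in both groups, 4 rose and 9 fell. Within arrays numbered 5 to 8 alone 0 rose and 6 fell, and with single arrays left out 5 to 16 rose and 11 to 16 fell. The rises were 8 without IL-12 8 h array 2, 5 without IL-12 8 h array 3, and 9 without IL-12 2 h array 3 or array 4. In IL-12 8 h against untreated cells 3 rose and 7 fell (1.04% and 2.13% of all genes), and in IL-12 2 h against untreated cells 1 rose, Myd88, and 0 fell.

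The MS4A family had 4 of 15 genes that rose and 0 that fell (median log2 0.00, all genes -0.01). They were Ms4a6b (0.30 ± 0.06, adjusted p = 0.00267), Ms4a4d (0.38 ± 0.08, adjusted p = 0.00727), Ms4a4b (0.38 ± 0.09, adjusted p = 0.0125) and Ms4a6c (0.29 ± 0.08, adjusted p = 0.0234). Ms4a4b, a member of the family known from T cells, had 11.17, 11.22, 10.98 and 10.63 at IL-12 8 h and 10.69, 10.79, 10.58, 10.61 and 10.52 at IL-12 2 h, so that the 8 h array numbered 6 lay among the 2 h arrays. Ms4a4b, Ms4a4c and Ms4a4d are close relatives, and probes of 1 may take up RNA of another. Within arrays numbered 5 to 8 alone none of these 4 passed (adjusted p of 0.289 to 0.718). Ms4a4b was also lost without IL-12 8 h array 3 (0.0638), and Ms4a6c without IL-12 8 h array 2 or 3 or IL-12 2 h array 2 or 3 (0.0517 to 0.118) and with title number as a block (0.0808). The B cell marker Ms4a1 had a log2 change of 0.10 (adjusted p = 0.421). The mean of 8 of 9 listed B cell markers was 6.72 to 6.99 at IL-12 8 h, 6.76 to 7.11 at IL-12 2 h, 6.75 to 6.80 in untreated cells and 7.12 at baseline; 1 of the 8, Ebf1, fell between 8 h and 2 h of IL-12 and 3 were higher on arrays numbered 2 to 4. Their part in these results was not tested.

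The other receptors for nucleic acids in endosomes did not pass the test. Tlr9, a sensor of DNA, had a log2 change of -0.17 ± 0.06 (adjusted p = 0.0889), Tlr8 -0.05 ± 0.08 (adjusted p = 0.821), Tlr3 -0.03 ± 0.05 (adjusted p = 0.787) and Unc93b1, the chaperone that brings these receptors to endosomes, -0.21 ± 0.07 (adjusted p = 0.0756). Tlr9 passed as lower without IL-12 8 h array 5 (adjusted p = 0.0271), Unc93b1 without either untreated array (adjusted p = 0.0403), and both among the brighter genes alone (adjusted p = 0.0474 and 0.0471). The whole list of Toll-like receptors and their signalling had 4 rises, 4 falls and 12 of 20 that did not pass. The kinase gene Irak2 fell (-0.65 ± 0.07, adjusted p = 3.39e-05), as did the ubiquitin ligase gene Traf6 (-0.53 ± 0.08, adjusted p = 0.000943), and the adaptor gene Ticam1 rose (0.28 ± 0.06, adjusted p = 0.00728). Irak2 and Traf6 were not called between IL-12 2 h and untreated cells (0.18 ± 0.09 and 0.06 ± 0.12). Myd88, the adaptor of Tlr7, fell against 2 h (-0.23 ± 0.06, adjusted p = 0.0278) and was higher than in untreated cells (0.38 ± 0.09, adjusted p = 0.0259). Its fall was lost without any 1 of 6 IL-12 arrays (8 h arrays 2, 3 and 6, 2 h arrays 2, 4 and 5; adjusted p of 0.0624 to 0.0786) and with title number as a block (adjusted p = 0.11). Myd88, Traf6 and Ticam1 did not pass within arrays numbered 5 to 8 (adjusted p = 0.316, 0.242 and 0.187), nor did Ticam1 with the block (adjusted p = 0.0587).

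Around Atp6v0d2, 1 of 23 other proton pump genes rose and 0 fell (median log2 0.01). That gene was Atp6v0d1, the widely expressed d subunit, with 0.20 ± 0.06 (adjusted p = 0.0382). Its rise was not called with title number as a block (adjusted p = 0.196), or without any 1 of 7 arrays (IL-12 8 h 2, 3 and 6, IL-12 2 h 2, 3, 4 and 6; adjusted p of 0.0585 to 0.139). It did not pass within arrays numbered 5 to 8 either (0.16, adjusted p = 0.561). Steroid synthesis genes beside Cyp11a1 had 0 of 16 calls, including the cholesterol carrier gene Star (-0.04 ± 0.07), the electron carrier gene Fdx1 that serves the enzyme (0.05 ± 0.07) and Hsd3b1, the next enzyme of the pathway (-0.07 ± 0.08).

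Of 18 prostanoid genes beside Tbxa2r, 1 rose and 3 fell (median log2 -0.06). Ptgs2, which encodes the inducible cyclooxygenase, fell 2.54-fold (log2 -1.34 ± 0.14, adjusted p = 3.39e-05). Its log2 intensity was 6.49, 6.59, 8.24 and 7.53 at IL-12 8 h and 8.06, 8.22, 8.27, 8.80 and 8.94 at IL-12 2 h, an overlap of 1 array. The prostaglandin E2 receptor genes Ptger2 (-0.58 ± 0.10, adjusted p = 0.00134) and Ptger4 (-0.44 ± 0.09, adjusted p = 0.00601) fell as well, while the prostacyclin receptor gene Ptgir rose (0.25 ± 0.06, adjusted p = 0.0162). Between IL-12 2 h and untreated cells Ptgs2, Ptger2 and Ptger4 were not called (-0.01 ± 0.19, 0.02 ± 0.13 and 0.25 ± 0.13). Within arrays numbered 5 to 8, Ptger2, Ptger4 and Ptgir did not pass (adjusted p = 0.195, 0.541 and 0.176). With title number as a block Ptger4 and Ptgir were lost (adjusted p = 0.0529 and 0.0713), and Ptgir also without IL-12 8 h array 3 (adjusted p = 0.0512). The thromboxane synthase gene Tbxas1 had -0.07 ± 0.07 (adjusted p = 0.602).

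Semaphorins and their receptors had 2 rises and 5 falls among 31 (median log2 -0.04). Sema7a, a lipid-anchored semaphorin of activated T cells, fell 2.62-fold (log2 -1.39 ± 0.06, adjusted p = 2.07e-08). It had 8.98, 9.16, 8.99 and 8.90 at IL-12 8 h against 10.53, 10.41, 10.34, 10.39 and 10.35 at IL-12 2 h, with no overlap and no gap between the runs. Untreated cells at 2 h had 10.09 and 9.94, above every 8 h array, and baseline had 8.68. Cd72, a semaphorin receptor of B cells (-0.60 ± 0.08, adjusted p = 0.00021), and Sema4c (-0.46 ± 0.07, adjusted p = 0.00061) fell too. Sema7a, Cd72 and Sema4c were not called between IL-12 2 h and untreated cells (0.34 ± 0.09, -0.14 ± 0.11 and -0.09 ± 0.10). Sema4a was the semaphorin that rose (0.26 ± 0.07, adjusted p = 0.0202), and plexin B genes, receptors of class 4 semaphorins, did not pass (Plxnb1 -0.03 ± 0.08, Plxnb2 -0.14 ± 0.09). The rise of Sema4a was lost without IL-12 8 h array 2 or 3 or IL-12 2 h array 2 or 4 (adjusted p of 0.0516 to 0.0948) and with title number as a block (adjusted p = 0.11). Sema4a had 0.13 within arrays numbered 5 to 8 (adjusted p = 0.682).

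Selenoprotein genes beside Scly had 3 rises and 2 falls among 28 (median log2 0.06). Selenoo (0.28 ± 0.05, adjusted p = 0.00295) and Eefsec, the elongation factor that delivers selenocysteine (0.26 ± 0.07, adjusted p = 0.018), rose, and Sepsecs, the enzyme that makes selenocysteine on its transfer RNA, fell (-0.34 ± 0.07, adjusted p = 0.00406). Within arrays numbered 5 to 8 these 3 did not pass (adjusted p of 0.108 to 0.64). Eefsec was also lost without IL-12 8 h array 2 or 3 (adjusted p = 0.0668 and 0.0873) and with the block (adjusted p = 0.118). Of the relatives of Tmem106a and Plac8, Tmem106b rose (0.31 ± 0.09, adjusted p = 0.0298). That call was lost with title number as a block (adjusted p = 0.165) and without IL-12 8 h array 2 or 3 or IL-12 2 h array 2, 3 or 4 (adjusted p of 0.0637 to 0.137). Its change was 0.04 within arrays numbered 5 to 8 (adjusted p = 0.915). Tmem106c (0.12 ± 0.08) and Plac8l1 (-0.03 ± 0.08) did not pass.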

How the data were processed

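The values the authors deposited are linear intensities, 1 for each of 24922 probe sets. Per the submitters' processing notes they come from RMA in Affymetrix Power Tools (version not given in the sources used here). RMA subtracts background and gives every array the same distribution, which can shrink differences shared by most genes. Array medians lay between 160.6 and 167.3. GEO's platform annotation gave 1 symbol for 21425 probe sets, and the brightest probe set stood for each of 19752 genes.

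The deposited intensities were then converted to log2. The model (lmFit and eBayes, limma 3.58.1 in R 4.3.3) took all 12 arrays, with a mean for each of 4 groups plus the numbered run; it had 7 residual degrees of freedom and a prior worth 6.84. The difference of the 8 h change between runs used means by group and run. Tests were two-sided, with Benjamini-Hochberg adjustment over all genes and a threshold of 0.05. The median SE was 0.069 for IL-12 8 h against 2 h and 0.095 against untreated cells, a precision set by how few arrays there are. The gene tests were tested on simulated data. Python 3.11.15 and matplotlib 3.10.9 drew the plots. Promoter windows were searched on both strands.

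Numbers 2, 3, 5 and 6 occur in both IL-12 groups. Deviations of same-numbered arrays from their group means correlated at 0.34 to 0.50 across genes, and at -0.25 and 0.03 once the run was also taken out. Each group and run then held only numbers 2 and 3 or 5 and 6, whose deviations mirror each other. These values therefore cannot show whether the numbers pair arrays beyond the run. Members and lists were chosen with earlier results of these data known. Named list genes were the called genes with the smallest p, up to 3 a list, and close relatives of members. Ptgir, Sema4a, Ms4a6c, Myd88, Ms4a1, Tlr3, Tlr9, Unc93b1, Tbxas1, Star, Fdx1, Hsd3b1, Plxnb1 and Plxnb2 were named outside that rule, after their values were seen. Alternatives changed normalization, offset, filter, variance model, probe sets, run, pairing, controls and single arrays.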

Additional observations from a re-analysis of the deposited data

Results flagged for a closer look

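The change of Plac8 between 2 h and 8 h of IL-12 differed between the numbered runs by a log2 of 0.70 (numbers 2 to 4 minus numbers 5 to 6). The value is from the model by group and run and is a description, since its arrays also chose the members. The cause was not tested. A check for a single array far from the others of its group, run on 20 sets of values of the 10 genes, marked 0 of them, where chance alone marks about 1 in 20. That check took each IL-12 group whole, across both runs, so for genes split by run, such as Plac8 and Atp6v0d2, the run sets the range and the check says little about single arrays.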

How the results depend on the processing

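Members' changes kept their sign in all 227 values over the alternatives for IL-12 8 h against 2 h (0.30 to 1.22) and in all 217 for IL-12 8 h against untreated (0.18 to 1.52). The choice of the members favours these signs, so nothing is read from them. Leaving out an untreated or baseline array cannot change the 8 h against 2 h values. The median of the members for IL-12 8 h against 2 h became 0.55 within arrays numbered 5 to 8. It became 0.70 for IL-12 8 h against untreated with the baseline array pooled with untreated ones, and 0.40 for IL-12 2 h against untreated without the run term. Cyp11a1 at IL-12 2 h against untreated turned to 0.35 without the run term, and Ms4a4c to -0.23 with baseline pooled.

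For IL-12 8 h against IL-12 2 h, 1239 genes were higher and 1257 lower. The counts were 412 and 459 without the run term, 78 and 285 within arrays numbered 5 to 8, and 438 and 672 with mean macrophage marker level added as covariate. With title number as a replicate block they were 487 and 759, and of the list genes named above only those given there with the block changed their call. Leaving out single arrays gave 634 (without IL-12 8 h array 3) to 1245 higher and 891 to 1291 lower genes. For IL-12 8 h against untreated, 205 were higher and 420 lower. This became 68 and 175 without the run term, 68 and 252 within arrays numbered 5 to 8, 48 and 42 with baseline pooled, and 20 and 110 with the covariate. Leaving out single arrays gave 67 to 228 higher and 200 to 435 lower. The fewest were found when untreated array 8 was left out; leaving out untreated array 7 gave 74 and 226. The higher genes were 112 when IL-12 8 h array 5 was left out and 135 for IL-12 2 h array 4.

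The median run difference of the members was 0.14, 0.39 among the brighter genes (7 members) and 0.29 with the covariate, which left 0 members called and 33 genes, against 4795. At an unadjusted p under 0.05 the model without the covariate had 6 members and 7444 of the 19752 genes. These counts are a description. Leaving out single arrays gave 5 to 6 members and 3710 to 4905 genes. In the difference of changes between runs, 6 members and 2683 of the 19752 genes had an unadjusted p under 0.05. Nothing is read from these counts or the next. The number called was 1 member. It was 3 members and 394 genes after quantile normalization, 3 and 457 with the offset, and 3 of 7 and 503 among the brighter genes. Without single arrays it was 0 to 2 members (0 without IL-12 8 h array 2 or 6, 2 without array 5) and 120 to 420 genes, against 354; leaving out any of IL-12 8 h arrays 2, 3 and 6 or IL-12 2 h arrays 2, 3, 4 and 6 moved that count by over 1.5 times. The pathway lists' 16 rises and 14 falls became 4 and 6 without the run term, and 5 and 11 with the covariate. Here a value moved when it changed by over 1 SD between arrays or a count by over 1.5 times. Causes were not tested. Some of these settings also put fewer arrays or genes into a fit.

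RMA intensities of Tlr7, Tmem106a and Atp6v0d2 lie below the median gene, where background can compress changes.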
